A study of Homo sapiens with 4 samples.

Results

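The genes described here are the ZNF zinc finger genes that CAL27 cells expressed. A gene was taken when its symbol was ZNF followed by a number and at most 1 letter and its mean over the 4 libraries was at least 2 FPKM (a count scaled by exon length and by the library's total). This rule gave 185 of the 409 listed genes with such a symbol, in a table of 29437 genes. The members were chosen by their mean level over all 4 libraries, so their levels are a description. Both groups add equally to that mean, and the rule did not use the difference between the groups. Some members still reached it only through the group where they were high. ZNF384 had a mean of 4.83 FPKM in the controls and 1.17 with overexpression, and ZNF771 had 1.36 and 3.08. The same holds for ZNF646, ZNF275, ZNF280C, ZNF618 and ZNF417, high in the controls, and for ZNF511 and ZNF32, high with overexpression. For these genes membership and change are not independent. Just inside the threshold lay ZNF35 at 2.05, ZNF417 at 2.01 and ZNF786 at 2.01 FPKM. Just outside lay ZNF7 at 1.97, ZNF222 at 1.97 and ZNF341 at 1.97 FPKM.

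CAL27 is an established human cell line from oral squamous cell carcinoma (OSCC), a cancer of the mouth lining. Polyadenylated RNA was sequenced from 2 negative control libraries and from 2 libraries of CAL27 cells given a lentivirus that overexpresses CCL20, a chemokine that attracts CCR6-bearing lymphocytes and dendritic cells. Cells were harvested after 48 hours, and each library was made from 1.5 µg of RNA. The labels do not say what the control cells received, nor whether the 2 libraries of a group came from separate cultures or separately infected cells, so p-values measure only the spread between these libraries.

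Most ZNF genes encode C2H2 proteins, in which pairs of cysteines and histidines hold a zinc ion and fold a short finger that reads a few bases of DNA. Fingers stand in tandem, joined by a conserved linker. Many human members begin with a KRAB box, which binds TRIM28 (KAP1) and through it brings the histone methyltransferase SETDB1 and heterochromatin proteins to transposable elements and other targets. A symbol in this series does not fix a function, since some ZNF proteins bind RNA, modify other proteins or hold another kind of finger.

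The repeat can be read in the coding sequence. One unit runs from the first cysteine of a finger to the end of the linker that follows, and the units below were read 5′ to 3′ from GENCODE 29 transcripts on GRCh38, with the 5 linker codons in capitals. ZNF664 is shown as the member with the highest level, ZNF358 and ZNF771 as members that were higher with overexpression, and ZNF121 and ZNF101 as members of lower GC content that were higher after a correction for transcript length. ZNF417 and ZNF587 are shown because their coding sequences are alike while only ZNF417 passed the test.
ZNF664: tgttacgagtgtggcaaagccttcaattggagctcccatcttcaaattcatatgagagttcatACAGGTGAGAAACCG
ZNF358: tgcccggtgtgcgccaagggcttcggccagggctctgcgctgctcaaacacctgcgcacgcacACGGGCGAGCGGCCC
ZNF771: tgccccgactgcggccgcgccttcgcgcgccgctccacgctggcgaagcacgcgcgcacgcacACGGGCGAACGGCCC
ZNF121: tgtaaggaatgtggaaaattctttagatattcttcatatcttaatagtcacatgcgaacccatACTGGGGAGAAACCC
ZNF101: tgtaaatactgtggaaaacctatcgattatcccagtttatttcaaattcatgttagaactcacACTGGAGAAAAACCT
ZNF417: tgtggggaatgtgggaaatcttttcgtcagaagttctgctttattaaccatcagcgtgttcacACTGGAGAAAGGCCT
ZNF587: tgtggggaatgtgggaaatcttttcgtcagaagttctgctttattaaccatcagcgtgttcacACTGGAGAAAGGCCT

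Each unit is 78 bases long. The codons spell one protein pattern with very different base use: GC content was 79.5% in the ZNF771 unit and 73.1% in the ZNF358 unit, against 43.6% in ZNF664, 37.2% in ZNF121 and 33.3% in ZNF101. The ZNF771 and ZNF358 units share 56 of 78 bases, and the ZNF664 and ZNF121 units share 51. The ZNF417 and ZNF587 units, both at residues 354 to 379, are identical at all 78 bases. A read that lies wholly within such a stretch cannot be given to one of the 2 genes by its own bases.

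By pattern search in the translated coding sequence, 176 of the 181 coding members held at least 1 C2H2 finger, 169 held 2 or more and 130 held at least 1 canonical linker. The other 4 members are pseudogenes. The number of fingers ran from 0 to 33 with a median of 8. ZNF462 had 33 and ZNF142 had 31, while ZNF185, a LIM domain protein of the actin cytoskeleton, and ZNF330, a nucleolar protein, had 0. A KRAB box was found in 61 members and a SCAN domain, which lets such proteins pair, in 10, with 2 members holding both. The KRAB pattern misses variant boxes, so further members may hold one. Chromosome 19 held 63 members. The next was chromosome 7 with 19.

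Total counts lay between 13681862 and 17860695 per library. The 2 overexpression libraries differed more from each other than the 2 control libraries did, with a chi-square of counts per gene of 51.8 against 8.50. CCL20 itself was at 8.62 and 7.10 FPKM in the controls and at 15.2 and 11.3 FPKM with overexpression. Its groups did not overlap, and its log2 fold change was 0.95 ± 0.21 (SE, edgeR adjusted p = 0.0143). With the correction for mRNA length described below its log2 fold change was 0.06 (edgeR adjusted p = 0.916). Of 8 squamous keratinocyte markers, 7 were at 1 FPKM or more, all but KRT14. Their summed level was 1554 and 1585 FPKM in the controls and between 2370 and 2655 FPKM with overexpression. Of the listed markers of other cell types, COL1A1 of 6 fibroblast, CD14 of 5 leukocyte, CDH5 of 4 endothelial and PMEL of 2 melanocyte markers reached 1 FPKM, with sums no higher than 8.81 FPKM in any library. In bulk RNA, fewer cells of a kind and less RNA per cell cannot be told apart. The part of the keratinocyte markers and of the spread between overexpression libraries in the results on ZNF genes was not tested.

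The ZNF genes are lowly expressed. Mean levels ran from 2.01 to 36.5 FPKM with a median of 3.60, 126 members lay under 5 FPKM and 15 reached 10 FPKM. Counts behind a member ranged from 27 to 4931 reads in a library. The median member was at 4.13 and 3.97 FPKM in the controls and at 3.27 and 3.09 FPKM with overexpression. Together the members took 0.612% and 0.601% of all counts in the controls and 0.471% and 0.422% with overexpression, and on this scale the groups did not overlap.

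The highest members do different jobs. ZNF664, a C2H2 protein with 9 fingers (chr12:123971845-124015439, plus strand), was at 48.1 and 43.5 FPKM in the controls and at 31.1 and 23.3 FPKM with overexpression. Both overexpression libraries were below both controls. Its log2 fold change was -0.55 ± 0.17 (SE, edgeR adjusted p = 0.0439). ZNF622, which takes part in maturation of the large ribosomal subunit (chr5:16451519-16465792, minus strand), moved the other way, from 25.9 and 28.5 to 38.6 and 41.1 FPKM. The groups did not overlap, and its log2 fold change was 0.76 ± 0.17 (SE, edgeR adjusted p = 0.0142). After the length correction the values were -0.24 (edgeR adjusted p = 0.403) for ZNF664 and 0.29 (edgeR adjusted p = 0.295) for ZNF622, so neither call was kept. Without either control library both calls were lost as well, with the highest edgeR adjusted p at 0.471 and 0.295.

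Among the other high members, ZNF598, the ubiquitin ligase that senses collided ribosomes (chr16:1997654-2009823, minus strand), was at 17.6 and 19.4 FPKM in the controls and at 8.28 and 8.97 FPKM with overexpression. The groups were far apart for its level, with a log2 fold change of -0.89 ± 0.17 (SE, edgeR adjusted p = 0.00862). ZNF185 was at 34.6 and 37.2 FPKM against 25.2 and 21.4 FPKM, without overlap, and its log2 fold change of -0.42 did not pass (edgeR adjusted p = 0.0769). ZNF787 was at 14.9 and 15.3 FPKM against 16.9 and 23.8 FPKM, with a log2 fold change of 0.64 that did not pass (edgeR adjusted p = 0.0532). ZNF146, a protein made almost wholly of fingers, ZNF385A, which binds RNA and p53, and ZNF207 (BuGZ), which loads BUB3 for spindle assembly, had log2 fold changes of -0.17, -0.14 and 0.04, none past the threshold. For ZNF146 and ZNF385A 1 overexpression library stood apart, 18.6 FPKM in replicate 2 against 31.6 in replicate 1 for ZNF146 and 14.3 in replicate 1 against 22.2 in replicate 2 for ZNF385A.

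**Figure D1:**
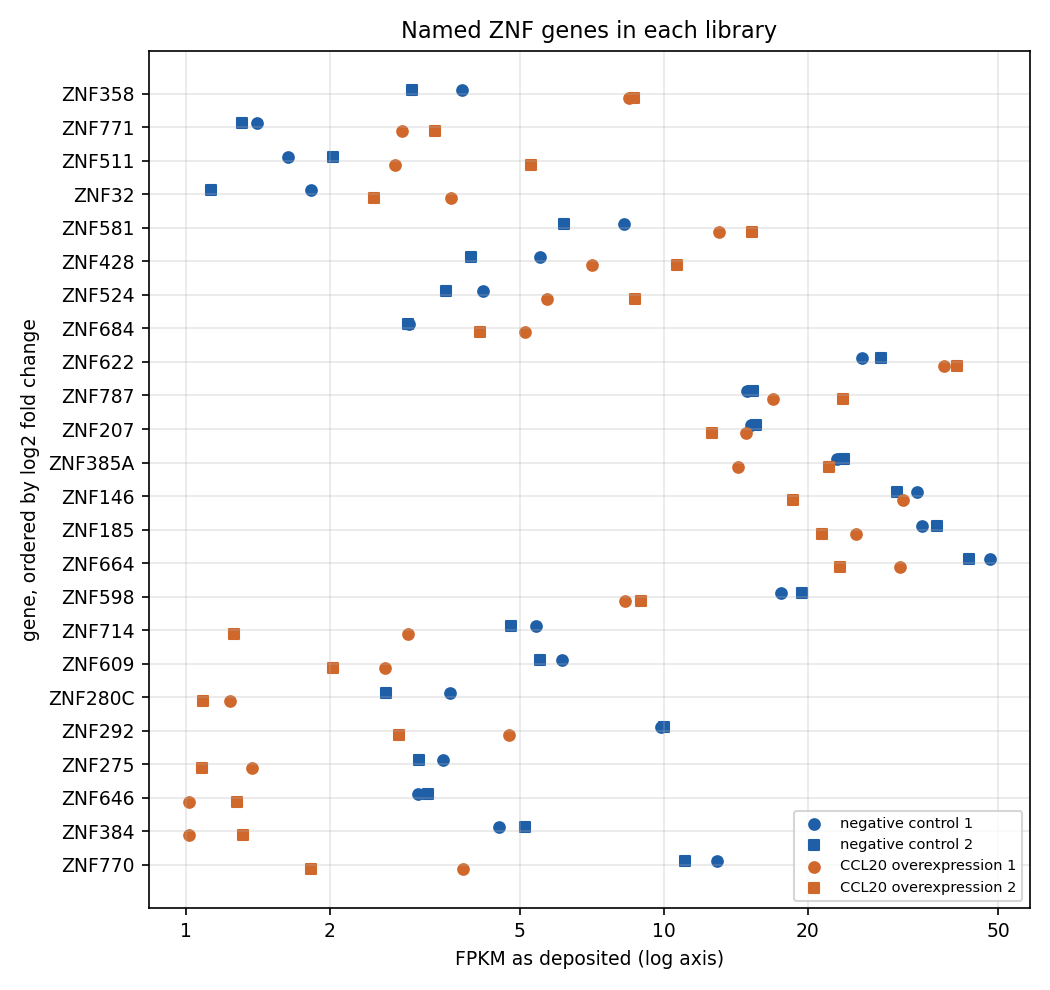
FPKM (x axis, log scale) of the named ZNF genes, ordered by log2 fold change from the lowest at the bottom to the highest at the top. Blue points are the 2 negative control libraries and orange points the 2 CCL20 overexpression libraries. The control points of ZNF770 and ZNF384 lie far to the right of the overexpression points and those of ZNF358 far to the left, while ZNF207 spans only 12.6 to 15.6 FPKM over the 4 libraries.

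All 185 members were tested, in a model over all 12168 genes with a mean of at least 1 FPKM. With CCL20 overexpression 14 members were higher, 7.57%, where 16.5% of all tested genes were higher. In the other direction 34 members were lower, 18.4%, where 15.7% of all tested genes were lower (edgeR quasi-likelihood test, Benjamini-Hochberg adjusted over all tested genes, threshold 0.05). The share of lower members was close to that of all genes, and the share of higher members was below it. Of the 9907 tested genes with a mean of at least 2 FPKM and no ZNF symbol, 19.4% were higher and 15.7% lower, with a median log2 fold change of 0.037. The median log2 fold change of the members was -0.14, against 0.002 over all tested genes, and 113 members were below 0. Scaled by library, the groups did not overlap for 48 members in the higher direction (25.9%, against 35.8% of all genes) and for 78 in the lower direction (42.2%, against 35.8%). Most differences were small: 112 members lay within 0.5 of 0 on the log2 scale, 7 lay above 1 and 15 below -1.

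The counts depended on single libraries, as did those of all genes. Without control replicate 1 there were 4 higher and 4 lower members (2.16% each), where 2.61% and 2.73% of all genes were called. Without control replicate 2 there were 3 and 12 (1.62% and 6.49%, against 3.74% and 4.39%). Without overexpression replicate 1 there were 36 higher and 68 lower members (19.5% and 36.8%, against 30.8% and 31.5%). Without overexpression replicate 2 there were 26 and 56 (14.1% and 30.3%, against 26.2% and 26.6%). With 1 library left in an arm, that library is assumed to vary like the pair in the other arm. On a TPM scale, where the median of all genes lay at -0.49, 3 members were higher and 83 lower, against 4.11% and 37.1% of all genes. Scaling by total count, with the median of all genes at -0.21, gave 9 and 50, against 10.3% and 24.5% of all genes.

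ZNF358 rose most (chr19:7515292-7521026, plus strand). Its level was 3.78 and 2.98 FPKM in the controls and 8.47 and 8.65 FPKM with overexpression. Both overexpression libraries were far above both controls, and the log2 fold change was 1.55 ± 0.22 (SE, edgeR adjusted p = 0.00456). ZNF771, a protein with 8 fingers by the pattern (chr16:30407297-30431108, plus strand), went from 1.41 and 1.31 to 2.83 and 3.32 FPKM. Its log2 fold change was 1.39 ± 0.22 (SE, edgeR adjusted p = 0.0053). Both genes passed in all 17 alternative settings, which included leaving out each library.

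The next by fold change were ZNF511 at 1.35, ZNF32 at 1.24, ZNF581 at 1.19, ZNF428 at 1.13, ZNF524 at 1.13 and ZNF684 at 0.86 on the log2 scale. ZNF524 is a telomere-binding protein, and ZNF684 was the only member with a KRAB box by the pattern among the 14. ZNF511 went from 1.63 and 2.03 FPKM to 2.75 and 5.28 FPKM, so that overexpression replicate 2 lay well above replicate 1. ZNF581 went from 8.25 and 6.19 to 13.1 and 15.3 FPKM. ZNF684 went from 2.93 and 2.91 to 5.12 and 4.13 FPKM. For each of these 3 the groups did not overlap. Each of the 6 lost its call without 1 or both control libraries: replicate 1 for ZNF511, replicate 2 for ZNF581 and ZNF428, either for ZNF32, ZNF524 and ZNF684. The highest edgeR adjusted p without a library lay between 0.0873 for ZNF511 and 0.302 for ZNF32. The remaining higher members were ZNF706, ZNF576, ZNF622, ZNF580, ZNF121 and ZNF22, with log2 fold changes between 0.63 and 0.82.

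The ZNF580 and ZNF581 genes overlap on the same strand of chromosome 19, with log2 fold changes of 0.68 and 1.19, and 16.1% of the 50-base stretches of ZNF581 mRNA also occur in ZNF580 transcripts and those of other genes. They are not independent measurements.

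ZNF770 fell most (chr15:34978341-34988287, minus strand). Its level was 12.9 and 11.1 FPKM in the controls and 3.81 and 1.83 FPKM with overexpression. Both overexpression libraries were far below both controls, with replicate 2 the lowest, and the log2 fold change was -1.90 ± 0.30 (SE, edgeR adjusted p = 0.0051). ZNF384, a transcription factor known from fusions in acute B cell leukaemia (chr12:6666477-6689572, minus strand), was at 4.53 and 5.13 FPKM in the controls and at 1.02 and 1.32 FPKM with overexpression. Its 2 overexpression libraries lay close together and far under the controls, with a log2 fold change of -1.84 ± 0.23 (SE, edgeR adjusted p = 0.00433). Both genes passed in all 17 alternative settings.

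Lower members next in size were ZNF646 at -1.23, ZNF275 at -1.21, ZNF292 at -1.21, ZNF280C at -1.20, ZNF609 at -1.12 and ZNF714 at -1.10 on the log2 scale. ZNF646 and ZNF292 passed without any 1 library, while ZNF275, ZNF280C, ZNF609 and ZNF714 did not pass without control replicate 1, with edgeR adjusted p between 0.0614 and 0.154. ZNF292 went from 9.88 and 10.0 FPKM to 4.75 and 2.79 FPKM, without overlap. ZNF609, whose gene also gives a well-known circular RNA that a polyA library does not capture, went from 6.13 and 5.50 to 2.62 and 2.03 FPKM, without overlap. ZNF618 (chr9:113876282-114056591, plus strand), which binds UHRF2 at modified cytosines, went from 3.50 and 3.31 to 1.32 and 1.51 FPKM. Its log2 fold change was -1.06 ± 0.19 (SE, edgeR adjusted p = 0.0076). ZNF217, an amplified oncogene in several carcinomas, was among the 34 at -0.68, as was ZNF281 at -0.85. The groups did not overlap for any of the 48 members past the threshold.

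The members that rose and those that fell differed in transcript length. The median mRNA was 1466 nt (782 to 4370) for the 14 higher members and 5429 nt (2867 to 10610) for the 34 lower members, against 3233 nt over all coding members. Length here is the median over the principal transcripts of a gene. Across the 181 coding members Spearman's rho of fold change with mRNA length was -0.73, the same as the -0.73 across all 10572 tested coding genes. These are correlations across genes of the same 4 libraries, and genes are not independent replicates. Among the members rho was -0.56 with the length of the 3′ untranslated region, -0.48 with that of the coding sequence and 0.30 with GC content. With the number of fingers it was -0.21.

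**Figure D2:**
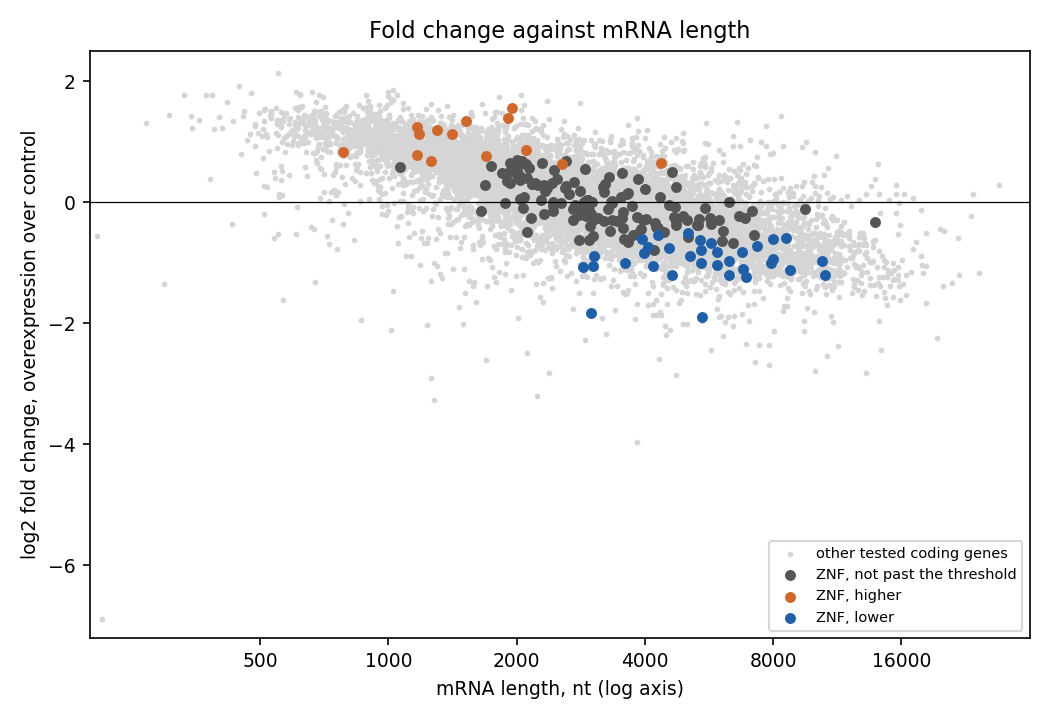
Log2 fold change with overexpression (y axis) against mRNA length in nt (x axis, log scale), 1 point a gene. Light grey points are other tested coding genes, dark grey points ZNF genes not past the threshold, orange points the 14 higher and blue points the 34 lower ZNF genes. The ZNF genes lie along the same falling band as the other coding genes.

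Within ranges of mRNA length the members can be set beside other coding genes. Under 2000 nt, 11 of 22 members were higher (50%), where 51.1% of other coding genes were, and the medians were 0.66 and 0.67 on the log2 scale. From 2000 to under 3000 nt, 2 of 59 members were higher and 2 lower (3.39% each), where 10.95% of other coding genes were higher and 4.50% lower, and the medians were 0.08 and 0.17. From 3000 to under 4000 nt, 5 of 37 members were lower (13.5%, against 9.71%). From 4000 to under 6000 nt, 14 of 40 members were lower (35.0%, against 28.2%), and the medians were -0.38 and -0.42. At 6000 nt or more, 13 of 23 members were lower (56.5%, against 56.0%), with the median at -0.67 in both.

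**Figure D3:**
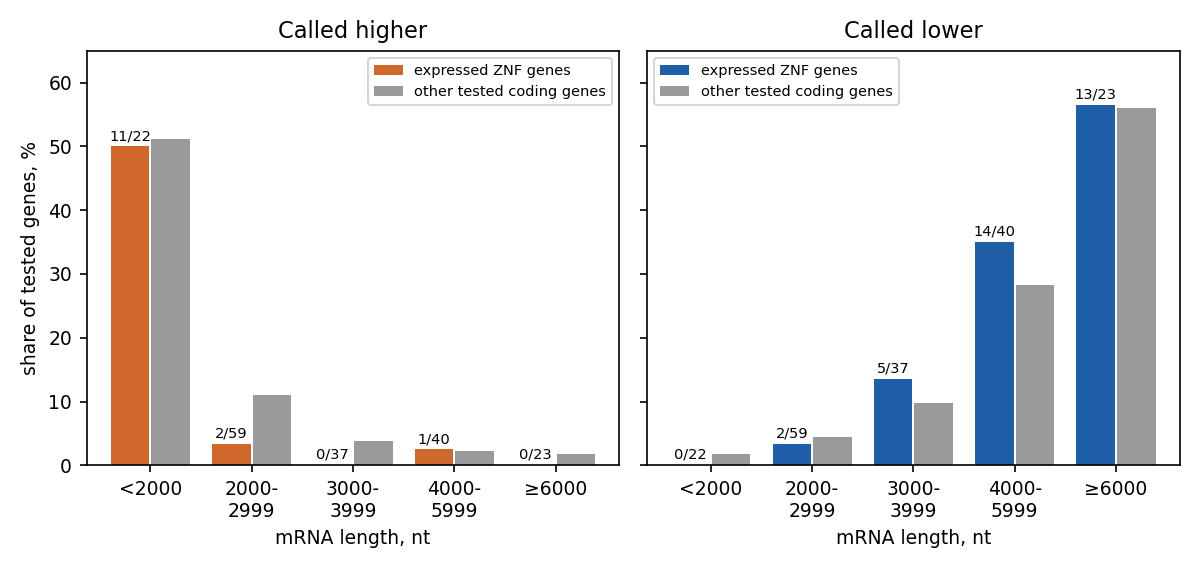
Share of tested genes (y axis, %) called higher (left) and lower (right) by edgeR, by mRNA length in nt (x axis). Coloured bars are expressed ZNF genes, with the number called over the number tested, and grey bars other tested coding genes. Among ZNF genes under 2000 nt 50% were higher, and among those of 6000 nt or more 56.5% were lower, beside 51.1% and 56.0% of other coding genes.

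When the dependence on mRNA length was taken out in each library, few calls were left. With this correction 4 members were higher and 4 lower of 181 coding members, where 3.63% and 3.19% of 10572 coding genes were called, and the median of the members was 0.003. Of the 14 higher calls 3 were kept and of the 34 lower calls 4, while the sign was kept in 12 and 32. The correction removes any difference that follows length, whatever made it. Taking out gene span and GC content as well gave 8 higher members, 4.42%, where 13.9% of coding genes were higher, and 28 lower members, 15.5%, where 11.1% were lower, with 3 and 21 of the first calls kept. What lies behind the length dependence was not tested.

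The 4 higher members were ZNF358, ZNF771, ZNF121 and ZNF101. ZNF358 had a corrected log2 fold change of 1.22 (edgeR adjusted p = 0.0183) and ZNF771 one of 1.03 (edgeR adjusted p = 0.0267). ZNF121 (chr19:9560353-9584533, minus strand) was at 5.08 and 4.76 FPKM in the controls and at 5.93 and 7.34 FPKM with overexpression. Its corrected log2 fold change of 0.98 (edgeR adjusted p = 0.0299) was larger than the 0.64 without correction. Its mRNA of 4370 nt, as the median over principal transcripts, was the longest among the 14 higher members. One of these ZNF121 transcripts has a 3′ untranslated region of 5590 nt, so the length used for the correction is uncertain. ZNF101 (chr19:19668796-19683509, plus strand) was at 1.99 and 2.30 against 2.56 and 2.69 FPKM. It passed with the correction, at 0.87 (edgeR adjusted p = 0.0455), and not in the main model, at 0.50 (edgeR adjusted p = 0.0887). Of the 17 alternative settings it passed in 4.

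The 4 lower members were ZNF770, ZNF384, ZNF618 and ZNF598. ZNF384 changed least by the correction, to -1.78 (edgeR adjusted p = 0.0092), its mRNA being 2993 nt. ZNF770 went to -1.44 (edgeR adjusted p = 0.0189), ZNF618 to -0.996 (edgeR adjusted p = 0.0211) and ZNF598 to -0.83 (edgeR adjusted p = 0.0261). For ZNF618 the length used was 3018 nt, with a 3′ untranslated region of only 57 nt, so this length is uncertain. Whether the ZNF618 call holds at another length was not tested. ZNF618 and ZNF598 lost their call without either control library in the uncorrected model, where the highest adjusted p were 0.085 and 0.151. ZNF121 lost its call without either control library as well, with the highest edgeR adjusted p at 0.342.

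**Figure D4:**
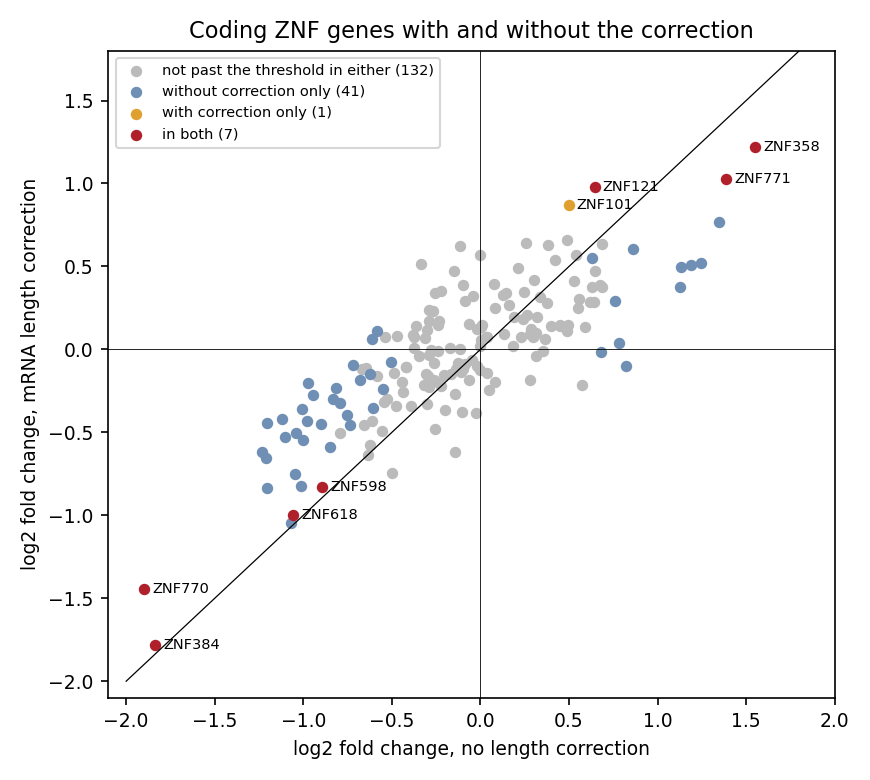
Log2 fold change of the coding ZNF genes without (x axis) and with (y axis) the mRNA length correction, with the diagonal drawn as a line. Colours show in which of the 2 models a gene passed the threshold, and the 8 genes that passed with the correction are named. ZNF358 and ZNF771 lie at the upper right and ZNF770 and ZNF384 at the lower left in both.

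Several of these genes share sequence or exons with a neighbour, and no source used here gives the strand setting of the counting, which leaves part of their counts uncertain. For ZNF384, 53.2% of the 50-base stretches of its mRNA occur in another gene's transcripts, mainly those of AC125494.1 on the other strand, which had 3 and 2 reads in the controls and was listed at 0 in both overexpression libraries. For ZNF770 the share was 35.0% and for ZNF358 it was 30.3%, with main partners that are not listed in the tables. ZNF511 shared 46.6%, mainly with ZNF511-PRAP1, and ZNF32 shared 24.2%, mainly with its antisense gene. ZNF22 shared 42.4%, mainly with a pseudogene of CEP164. ZNF771 shared 0.301%, ZNF121 1.02%, ZNF101 3.47% and ZNF598 16.2%. The mRNA of ZNF618 shared none. Among the 68 members that share no 50-base stretch, 3 were higher and 13 lower (4.41% and 19.1%, against 16.5% and 15.7% of all tested genes), and their median was -0.13.

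ZNF417 and ZNF587, whose shared finger unit is printed above, show the limit within the family. Of the mRNA of ZNF417, 40.2% of 50-base stretches occur elsewhere, mainly in ZNF587, and 6 units at matching residues had between 75 and 78 of 78 identical bases. ZNF417 had 156 and 219 reads in the controls and 83 and 81 with overexpression. Its groups did not overlap, with a log2 fold change of -1.01 ± 0.23 (SE, edgeR adjusted p = 0.0141), and edgeR adjusted p of 0.117 and 0.156 without control replicate 1 or 2. ZNF587 had 588 and 684 reads in the controls and 529 and 418 with overexpression, and its log2 fold change of -0.26 did not pass (edgeR adjusted p = 0.332). ZNF587B, another near copy, was at 0.40 (edgeR adjusted p = 0.186). Whether the changes of ZNF417 and ZNF587 differ was not tested.

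By structure, the 61 members with a KRAB box had 1 higher (ZNF684) and 8 lower (ZNF484, ZNF621, ZNF417, ZNF772, ZNF551, ZNF317, ZNF316 and ZNF12), and a median of -0.17. These are 1.64% and 13.1%, where 16.5% of all tested genes were higher and 15.7% lower. The 100 members with 2 or more fingers and neither KRAB nor SCAN had 11 higher and 23 lower (11% and 23%), their median being -0.14. Of the 10 SCAN members ZNF24 was lower, at -0.98, and the highest was ZNF165 at 0.63, which did not pass (edgeR adjusted p = 0.062). After the length correction the medians of these 3 classes were -0.03, 0.005 and 0.03. The 12 members with at most 1 finger had 2 higher, ZNF428 and ZNF706, and 2 lower, ZNF598 and ZNF609. The 4 pseudogenes, ZNF204P, ZNF252P, ZNF602P and ZNF767P, had log2 fold changes between -0.36 and 0.21, none past the threshold.

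The 74 members with 10 or more fingers had 16 lower and none higher by edgeR or by DESeq2, with 1 higher at an unadjusted p under 0.05, and a median of -0.25. The share of lower members was 21.6%, where 15.7% of all tested genes were lower and 16.5% higher. Among the 16 were ZNF462, ZNF142 and ZNF646, the last with 30 fingers. ZNF462 went from 6.24 and 5.71 to 2.88 and 2.41 FPKM, without overlap, with a log2 fold change of -0.97 ± 0.17 (SE, edgeR adjusted p = 0.0064), and did not pass without control replicate 1 (edgeR adjusted p = 0.123) or 2 (edgeR adjusted p = 0.0593). The 95 members with 2 to 9 fingers had 12 higher and 16 lower (12.6% and 16.8%), around a median of -0.02. Members with more fingers also had longer mRNAs, 3801 against 2860 nt at the median, and with the length correction the medians were -0.02 and 0.06.

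By position, the 63 members on chromosome 19 had 7 higher and 6 lower (11.1% and 9.52%) and a median of -0.002. The 122 on other chromosomes had 7 higher and 28 lower (5.74% and 23.0%) and a median of -0.22. Of the 620 other coding genes on chromosome 19, 27.4% were higher and 7.26% lower, with a median of 0.30. Corrected for length, the medians were 0.14 for the members on chromosome 19, -0.10 for the other members and 0.15 for the other chromosome 19 genes. These medians have no test of their difference.

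The genes through which KRAB proteins silence chromatin were taken from a list of 29, of which 28 were tested. TRIM28, the hub, was at 110 and 136 FPKM in the controls and at 106 and 134 FPKM with overexpression. The groups interleaved, and the log2 fold change was 0.18 ± 0.20 (SE, edgeR adjusted p = 0.517). SETDB1, the methyltransferase that TRIM28 recruits, was at 2.92 and 3.11 against 1.93 and 1.003 FPKM, with a log2 fold change of -0.85 ± 0.28 (SE, edgeR adjusted p = 0.048). In all 8 of the 28 were lower: SETDB1 and its partner ATF7IP, MORC2 and TASOR (listed as FAM208A) of the HUSH pathway, the heterochromatin protein gene CBX5, ATRX, DNMT3B and EHMT2. Their log2 fold changes lay between -1.04 and -0.58, and 28.6% of the list was lower, where 15.7% of all tested genes were. The 2 higher, 7.14% where 16.5% of all tested genes were higher, were the NuRD helicase gene CHD4 at 1.32 (edgeR adjusted p = 0.0043), which overlaps a gene on the same strand over 46.9% of its exons, and the methyltransferase gene SUV39H1 at 0.58 (edgeR adjusted p = 0.0468).

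With the length correction CHD4 and HDAC2 were higher and CBX5 lower. HDAC2 had not passed without the correction, at 0.33 (edgeR adjusted p = 0.164), and was at 1.08 with it, for a length of 9874 nt. For CBX5 the length used was 1832 nt, the median over its principal transcripts, but 1 of these has a 3′ untranslated region of 10818 nt. Whether the calls of HDAC2 and CBX5 hold at another length was not tested. With the correction the median over the list of 28 went from -0.34 to -0.06. Without control replicate 2 the uncorrected model called none of them lower and 1 higher, and without control replicate 1 it called 1 lower and 1 higher. By unadjusted p under 0.05 in all 4 libraries 12 were lower and 4 higher, and DESeq2 called 10 lower and 2 higher. Of all 12168 tested genes 2753 were lower and 2844 higher by unadjusted p, and 2052 and 2075 by DESeq2.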

How the data were processed

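In each of the 4 deposited tables, 29437 genes have raw counts of whole reads from the authors. The authors' second column, FPKM per the file headers, is that count scaled by exon length and library total; for all 185 members the length it implies is the union exon length in GENCODE 29. HISAT2, HTSeq 0.13.5 and GRCh38 are named in the submitters' processing notes; no source used here gives the annotation, the trimming or the strand setting.

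Groups were compared by the quasi-likelihood test of edgeR 4.0.16 under R 4.3.3 (TMM factors, group only, two-sided, glmQLFTest) on 12168 genes with a mean of at least 1 FPKM. The mRNA length correction used as an offset a natural spline with 5 degrees of freedom of each library's log2 CPM deviations, for 10572 coding genes. DESeq2 1.42.0, limma 3.58.1 on log2(FPKM + 1), other scalings and filters, and leaving out each library served as alternatives; coding genes only was added after seeing the data. Simulated counts of 10572 genes had 200 changed genes and the same dispersion in every gene and both groups. Without a length trend, 79% of 2-fold and 98% of 4-fold changes were recovered. The wider spread between the overexpression libraries was not simulated, so these shares need not hold for the data. With a simulated length trend of -0.6 on the log2 scale per doubling, 95.3% of the uncorrected and 5.18% of the corrected calls were false. That trend was added by length and the correction takes out length, so the lower share follows from the design. The share of false calls among the members was not tested.

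Fingers (C2H2), linkers, KRAB and SCAN were searched by pattern in translated GENCODE 29 coding sequence, in place of the RefSeq proteins first planned. Groups came from the labels. Named genes were the 8 largest rises and falls past the threshold without overlap, the 8 highest members, those past the corrected threshold, those nearest the level threshold, those with most and fewest fingers, and corepressor genes past the threshold. Other members past the threshold, and SCAN, near-copy and pseudogene members, were named after their values were seen. The members and lists were chosen with earlier results of these data known.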

Additional observations from a re-analysis of the deposited data

How the results depend on the processing

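Of the members, 14 were higher and 34 lower with a median log2 fold change of -0.14. In the same model 16.5% of all tested genes were higher and 15.7% lower. Total count scaling gave 9 higher and a median of -0.35, the TPM scale 3 higher, 83 lower and -0.63, and the mRNA length correction 4, 4 and 0.0032. Taking out length, span and GC gave 8 higher and -0.0765. The limma test on log2(FPKM + 1) gave 7 higher and a median of -0.28, and on log2(FPKM + 0.1) 7 and -0.34. By limma 3853 and 3614 of 12168 genes were called in either direction. No filter moved the median to -0.0917, edgeR's own filter to -0.086 and a filter at 2 FPKM to -0.17. A level threshold of 1 FPKM gave a median of -0.17 over 264 genes, and one of 5 FPKM gave 8 higher, 13 lower and 0.0799 over 59 genes. Leaving out 1 library gave between 3 and 36 higher, between 4 and 68 lower, and medians between -0.16 and -0.13.

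Corepressor genes, 2 higher and 8 lower, were 1 and 13 with total count scaling and 1 and 16 on the TPM scale. Of all tested genes 10.3% were higher and 24.5% lower with total count scaling, and 4.11% and 37.1% on the TPM scale. The filter at 2 FPKM and both limma tests gave 1 higher, the length correction 1 lower, and length, span and GC 4 higher and 5 lower. With length, span and GC taken out, 13.9% of coding genes were higher and 11.1% lower. Leaving out 1 library gave between 1 and 6 higher and between 0 and 16 lower. The cause was not tested in any of these cases.

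With the replicate number as a block the members were 26 higher and 51 lower with a median of -0.15, and corepressor genes 4 higher and 13 lower. Under the block 5758 of 12168 genes were called in either direction, against 3915 in the main model. With 2 pairs the deviations of same-numbered libraries had a correlation of 0.265, and the labels name no shared culture or day, so the numbers are not taken to pair the libraries. ZNF786 was at 0.004 under the block.

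Of the members past the threshold, ZNF706 at -0.0986, ZNF580 at -0.0181, ZNF592 at 0.0631 and ZNF740 at 0.11 on the log2 scale changed sign with the length correction. The other turns were of genes that had not passed. On the TPM scale these were ZNF207 at -0.45, ZNF330 at -0.14, TRIM28 at -0.33, ZNF7 at -0.16 and ZNF35 at -0.365. Total count scaling gave ZNF207 -0.17, TRIM28 -0.0419 and ZNF35 -0.0801. The limma test gave ZNF207 -0.16, TRIM28 -0.0379 and ZNF35 -0.0482 with a pseudocount of 1, and -0.17, -0.0382 and -0.0652 for the same genes with 0.1. With the length correction ZNF207 was at -0.14, ZNF330 at -0.0066, ZNF341 at 0.185, ZNF146 at 0.0064 and ZNF786 at 0.0204. With length, span and GC ZNF207 was at -0.16, ZNF330 at -0.0696, ZNF341 at 0.23, ZNF35 at -0.0089 and ZNF786 at 0.0372. ZNF341 and ZNF786 were at 0.0271 and 0.0469 with no filter and at 0.0354 and 0.0544 with edgeR's own, and ZNF786 was at 0.005 with coding genes only. Leaving out 1 library gave ranges from -0.0371 to 0.11 for ZNF207, from -0.34 to 0.23 for ZNF341, from -0.55 to 0.17 for ZNF385A, from -0.15 to 0.17 for ZNF786, from -0.0604 to 0.37 for TRIM28, from -0.54 to 0.13 for ZNF146 and from -0.0508 to 0.33 for ZNF35.

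The SE of a member's log2 fold change ran from 0.157 to 0.392 with a median of 0.218. No member within 0.5 of 0 passed by edgeR. What part of the SE is depth and what part spread between libraries was not tested.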

Other observations

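Other zinc finger families were taken by symbol alone, with no check of the protein and no test of a family. Over all tested genes 16.5% were higher and 15.7% lower. ZBTB proteins typically join fingers to a BTB pairing domain. Of 31 tested genes with a ZBTB symbol, 1 was higher and 9 lower (3.23% and 29.03%), and the median log2 fold change was -0.44. Of 19 KLF and SP genes 7 were lower (36.8%), with a median of -0.43 and none higher by edgeR or DESeq2 (1 at an unadjusted p under 0.05). Of 17 ZSCAN and ZKSCAN genes 3 were lower (17.6%), with a median of -0.21. Of 12 ZFP genes none passed by edgeR or DESeq2, 2 were lower at an unadjusted p under 0.05, and the median was -0.32. Corrected for length, these 4 medians were -0.03, -0.14, 0.11 and -0.11. The correction covers coding genes only, which were 15 of the ZSCAN and ZKSCAN genes. The KLF and SP, ZBTB and ZFP genes had median mRNAs of 3824, 4106 and 3402 nt.

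The ZC3H and ZDHHC families, known for other roles than reading DNA, were taken in the same way and stand beside these. Of 14 tested ZC3H genes, a family known for binding RNA, 4 were lower (28.6%), and the median was -0.43. Of 21 tested genes with a ZDHHC symbol, a family of palmitoyltransferases, 2 were higher and 5 lower (9.52% and 23.8%), and the median was -0.16. Corrected for length, which covers coding genes only, the medians were 0.08 and -0.003, the second over 20 genes. Of the 79 tested ZNF genes under the level threshold, 13 were lower (16.5%) and none higher by edgeR or DESeq2, with 3 higher at an unadjusted p under 0.05 and a median of -0.26. With the correction 3 were lower and the median was -0.06.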
